A study of Camellia sinensis with 6 samples.

Results

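Translation GTPases are the GTP-hydrolysing factors that drive the ribosome, and the gene models described here are the 45 of 40118 in the deposited annotation whose domain family label is GTP_EFTU, the GTP-binding domain of elongation factor Tu. The label was read from the annotation and uses no measured value. RNA was sequenced from young shoots of the tea plant (Camellia sinensis) cultivar 'Zhonghuang 2', whose new leaves turn yellow in the cool. After a first month at 22 °C, one climate chamber was held at 18 °C in the light and 14 °C in the dark (low temperature, 3 libraries, yellowed shoots). The other was held at 26 °C in the light and 22 °C in the dark (high temperature, the control, 3 libraries, green shoots). Both had 12 h of light and 12 h of dark, all plants share the same genotype, and shoots were taken once leaves at low temperature had yellowed. Each temperature had its own chamber, so temperature, chamber and leaf colour cannot be told apart. Whether the libraries stem from different plants is not stated, and the p-values therefore cover only the spread among libraries, which may be technical.

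Protein synthesis runs on separate ribosomes in the cytosol, the chloroplast and the mitochondrion, and each kind has its own set of these GTPases, nearly all encoded in the nucleus. Elongation factor Tu, called elongation factor 1-alpha (EF-1-alpha) in the cytosol, delivers aminoacyl-tRNA to the ribosome. Elongation factor G, called elongation factor 2 (EF-2) in the cytosol, moves the ribosome along by a codon, and initiation factor IF-2 or eIF5B helps join the ribosomal subunits at the start. In leaves the chloroplast set translates the plastid-encoded subunits of the photosystems and of Rubisco. The comparison below asks which of these factors differ in RNA level between yellowed cool-grown and green warm-grown shoots.

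The names of the members fit the label for 41 of the 45. By protein name 7 are chloroplastic and 4 mitochondrial. No name contains the word cytosolic, so 27 models named as eukaryotic-type factors (EF-1-alpha, EF-2, eIF2 gamma, eIF5B, the release factor subunit eRF3, an HBS1-like protein and elongation factor-like GTPase 1) are called cytosolic-type here. Another 4 have bacterial-type names with no compartment (an IF-2, a pair of TypA/BipA models and GTPase Der), and 3 carry the domain under other names, a U5 spliceosomal protein, a methyltransferase named PMT21 and a kinase named scy1. The 4 whose names are not those of translation factors are Der, a ribosome assembly GTPase, and those 3. All 45 hold the GTP-binding domain, 20 also hold EF-Tu domain 2 and 8 the C-terminal domain of elongation factor G. Coding lengths ran from 318 to 3819 bases, and 16 models were shorter than 1000 bases, 13 of them named EF-1-alpha.

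Counts summed to between 15202546 and 15642015 per library. High-temperature replicate 2 stood apart on the second principal component, which held 17.1% of the variance, and its counts were the least like those of its group (chi-square averaging 26.5 and 23.0 over gene models, where replicates 1 and 3 gave 5.41). Of the leaf markers, chlorophyll a-b binding proteins and Rubisco small chains, 23 of 25 gene models had enough reads to be tested, 1 rose and 14 fell. Their summed level was 30663 ± 493 CPM (counts scaled to library size with TMM factors) in low-temperature and 44845 ± 7546 CPM in high-temperature libraries (SD, n = 3 each), of which high-temperature replicate 2 had 36132 CPM. In whole shoots fewer cells of a type and less RNA per cell cannot be told apart. Of the other cell type markers, matched on protein names, 1 of 29 dividing-cell gene models rose and 3 fell, one of the 3 being a calcyclin-binding protein caught by the wording. None of 11 vascular ones was called (3 lower at an unadjusted p under 0.05), and 3 of 25 epidermal ones rose and 2 fell. Higher calls thus made up 3.45% of the tested dividing-cell and 12% of the tested epidermal gene models. Over all tested gene models 9.27% were called higher and 9.65% lower. The part of cell type shares in the results below was not tested.

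At low temperature 13 of the 34 members that had enough reads to be tested rose and none fell. Among the cytosolic elongation factors 3 of 9 tested EF-1-alpha and 1 of 2 EF-2 models rose, and the largest differences in CPM were in EF-1-alpha. Of the bacterial-type factors, 2 of 3 IF-2, 2 of 3 elongation factor G, 1 of 3 tested elongation factor Tu and both TypA/BipA members rose. Neither of the GUF1 members nor GTPase Der was called. By compartment, 5 of 17 tested cytosolic-type, 2 of 6 chloroplastic, 2 of 4 mitochondrial and 3 of 4 unassigned bacterial-type members were called higher, and so was 1 of the 3 with other names. The rises were moderate, from 1.34-fold to 2.30-fold, and 2 of them were at least 2-fold. In the fit over all 26767 tested gene models 18.9% were called, 9.27% higher and 9.65% lower (edgeR quasi-likelihood test, Benjamini-Hochberg adjusted p under 0.05), whereas 38.2% of the tested members were called higher. The median log2 change of low over high temperature was 0.33 over the 34 members and -0.01 over all gene models tested.

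Of the 34 tested members 24 had a mean of at least 10 CPM, and a change is easier to call where reads are many. The part of read depth in the share called was not tested. Among tested gene models with a mean of at least 10 CPM, 14.4% were called higher and 12.6% lower, and 12 of the 24 members at that level were called higher. No member was called lower by edgeR or by DESeq2, and 1 was lower at an unadjusted p under 0.05. Low-temperature libraries all lay above all high-temperature ones in 17 of 34 members, where 18.1% of all tested gene models did so, and all below in 1 member, against 18.4%. With high-temperature replicate 2 left out, 14 members were called higher and none lower, and all gene models together gave 5621 calls. With low-temperature replicate 3 left out, 8 were called higher and none lower, while all gene models together then gave 2681 calls, against 5062 with all 6 libraries.

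**Figure D1:**
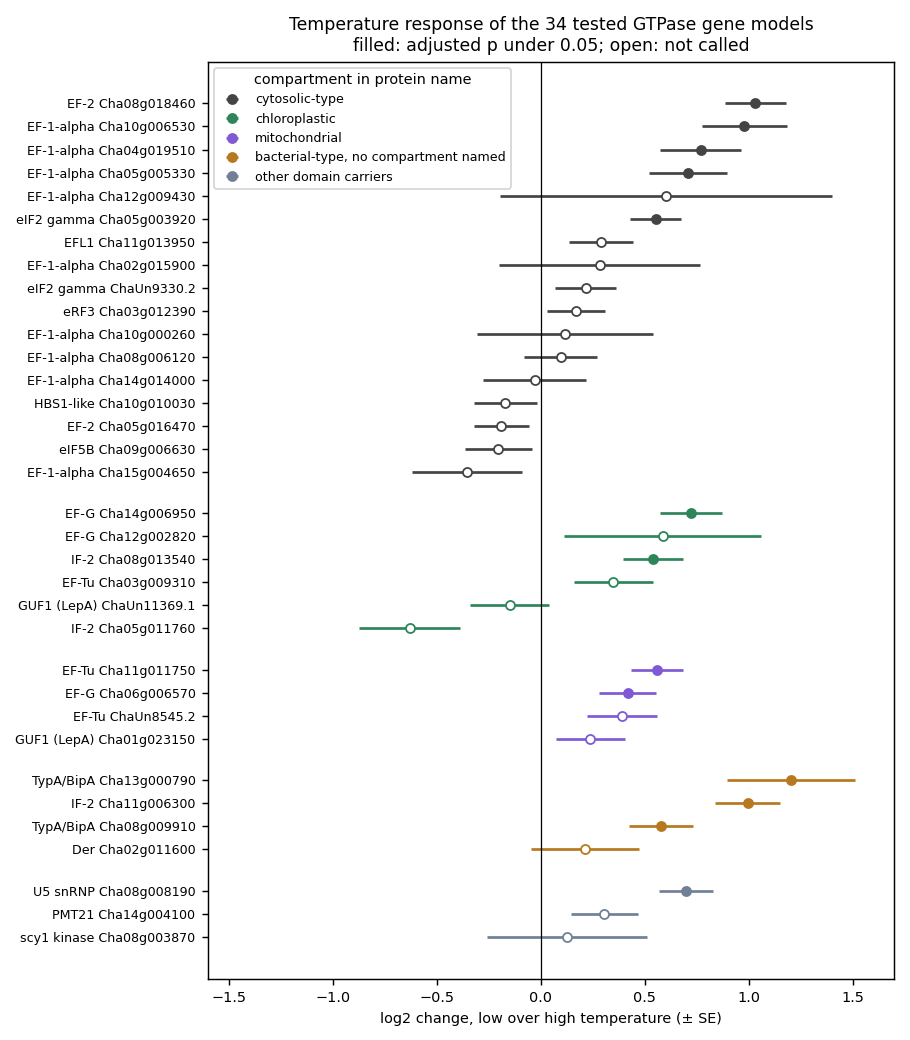
Log2 change of low over high temperature (x axis, ± SE from the fit over all gene models) for the 34 tested members, grouped by the compartment in the protein name; filled points passed the test at an adjusted p under 0.05. All 13 filled points lie to the right of 0, from 0.42 to 1.20.

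The 11 members that did not pass the filter on low counts were 9 EF-1-alpha models, a fragment of a chloroplastic EF-Tu outside the annotated gene set and an eIF5B model. Of the 11, 6 had no read in any library, all of them EF-1-alpha models of under 1000 bases, where 3 counts would be 0.180 to 0.204 CPM. The other 5 had at most 35 counts in a library.

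EF-1-alpha is the most abundant GTPase of the cytosolic ribosome and also binds actin. Its 18 member models held 0.818 ± 0.0162% of all counts in low-temperature and 0.477 ± 0.0871% in high-temperature libraries (SD, n = 3 each). Summed, they came to 8677, 8117 and 8158 CPM in low-temperature replicates 1, 2 and 3, against 5571, 3450.2 and 5269 CPM in high-temperature replicates 1, 2 and 3. Library values below follow the same order of replicates. The groups did not overlap in this sum, and high-temperature replicate 2 was the lowest of all 6 libraries.

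Nearly all of that RNA came from 3 of the 4 models with the same coding length of 1344 bases, and all 3 rose. Cha04g019510 (assembly sequence 4, 169715299 to 169716921, plus strand) had 3151, 2999 and 3055 CPM in low-temperature libraries, against 2096, 1327 and 1983 CPM in high-temperature ones, a log2 change of 0.77 ± 0.19 (SE, adjusted p = 0.0102). Cha10g006530 (assembly sequence 10, 47456006 to 47457468, minus strand) had 3160.1, 2883 and 2899 CPM, against 1811, 1036 and 1689 CPM at high temperature, a log2 change of 0.98 ± 0.21 (adjusted p = 0.00311). Cha05g005330 (assembly sequence 5, 45421885 to 45423910, minus strand) had 2193, 2053 and 2029 CPM, against 1469.7, 964 and 1408 CPM (log2 change 0.71 ± 0.19, adjusted p = 0.0128). In each of the 3 every low-temperature library was above every high-temperature one, and replicate 2 was the lowest high-temperature library. Without that replicate the log2 changes were 0.59, 0.77 and 0.54, still called (adjusted p = 0.000107, 4.78e-06 and 0.00032). Cha04g019510 and Cha05g005330 lost the call without low-temperature replicate 3 (adjusted p = 0.056 and 0.058), and Cha05g005330 also without low-temperature replicate 2 (adjusted p = 0.0586). In limma on log2(FPKM + 1) with no filter on low values none of the 3 was called (adjusted p = 0.0982, 0.0581 and 0.0869).

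The 4th full-length copy, Cha08g006120, had 154, 164 and 160.4 CPM at low temperature, against 177, 102 and 170.2 CPM at high temperature, and did not pass the test (log2 change 0.09 ± 0.17, adjusted p = 0.756). Its share of all EF-1-alpha counts was 1.78, 2.02 and 1.97% in low-temperature libraries, against 3.17, 2.94 and 3.23% in high-temperature ones. The share of Cha10g006530 went the other way, with 36.4, 35.5 and 35.5% at low temperature, against 32.5, 30.0 and 32.1% at high temperature. Like Cha08g006120, Cha04g019510 and Cha05g005330 had lower shares at low temperature. Cha04g019510 had 36.3, 37.0 and 37.4%, against 37.6, 38.5 and 37.6% at high temperature. Cha05g005330 had 25.3, 25.3 and 24.9%, against 26.4, 28.0 and 26.7%. None of these pairs of ranges overlapped. Shares within a library add up to a fixed total, so they do not vary independently. There are 25 gene models with the protein name EF-1-alpha, 18 of them members, and the sources used here do not say how reads matching several copies were assigned, which leaves the split between copies uncertain. Among the 13 member models under 1000 bases, 4 were tested and none was called (log2 changes from -0.03 to 0.60, none at an unadjusted p under 0.05), nor was the remaining model, Cha15g004650 (adjusted p = 0.385). Outside the family label, 26 further gene models share a protein name with a member, of which 21 were tested, 4 rose and 1 fell. Over all tested gene models 9.27% were called higher and 9.65% lower. Cha08g018470 and Cha13g000800, among the 4 that rose, are the neighbours of called members described below. Of the 21 tested models, 5 are named EF-1-alpha and 1 of these was called, ChaUn10361.3. This 450-base model holds only domain 2. It had 281, 291 and 260.0 CPM at low temperature, against 154, 87.1 and 152 CPM at high temperature (log2 change 1.08 ± 0.18, adjusted p = 0.00073).

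EF-2, the translocase of the cytosolic ribosome, is annotated here by likeness to Arabidopsis LOS1, whose mutation can impair protein synthesis in the cold in that species. Cha08g018460 (assembly sequence 8, 150804178 to 150806167, minus strand) had 387, 467 and 479.7 CPM at low temperature, against 236, 207 and 209 CPM at high temperature. The lowest low-temperature library was well above the highest high-temperature one, and the log2 change of 1.03 ± 0.15 (adjusted p = 0.000147) had the smallest p of all members. This model has a coding length of 1230 bases and holds only the GTP-binding domain. The next model on the same strand, Cha08g018470, lies 4 bases away, carries the same protein name and holds EF-G domains II and IV and the C-terminus, and the 2 lengths add up to 2628 bases, near the 2532 bases of the other EF-2 member. It had 645, 762 and 726 CPM at low temperature, against 393, 326 and 365 CPM at high temperature (log2 change 0.98 ± 0.15, adjusted p = 0.000317). It was not tested whether the pair make up 1 gene, in which case they are not independent. The complete EF-2 member, Cha05g016470, had 54.6, 69.2 and 66.4 CPM at low temperature, against 75.0, 66.6 and 75.5 CPM, and did not pass the test (log2 change -0.19 ± 0.13, adjusted p = 0.351). Its groups overlapped, and its level per length was about an order below that of Cha08g018460, 24.7 ± 3.05 against 357 ± 41.0 FPKM (fragments scaled by coding length and library size; SD, n = 3) at low temperature.

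**Figure D2:**
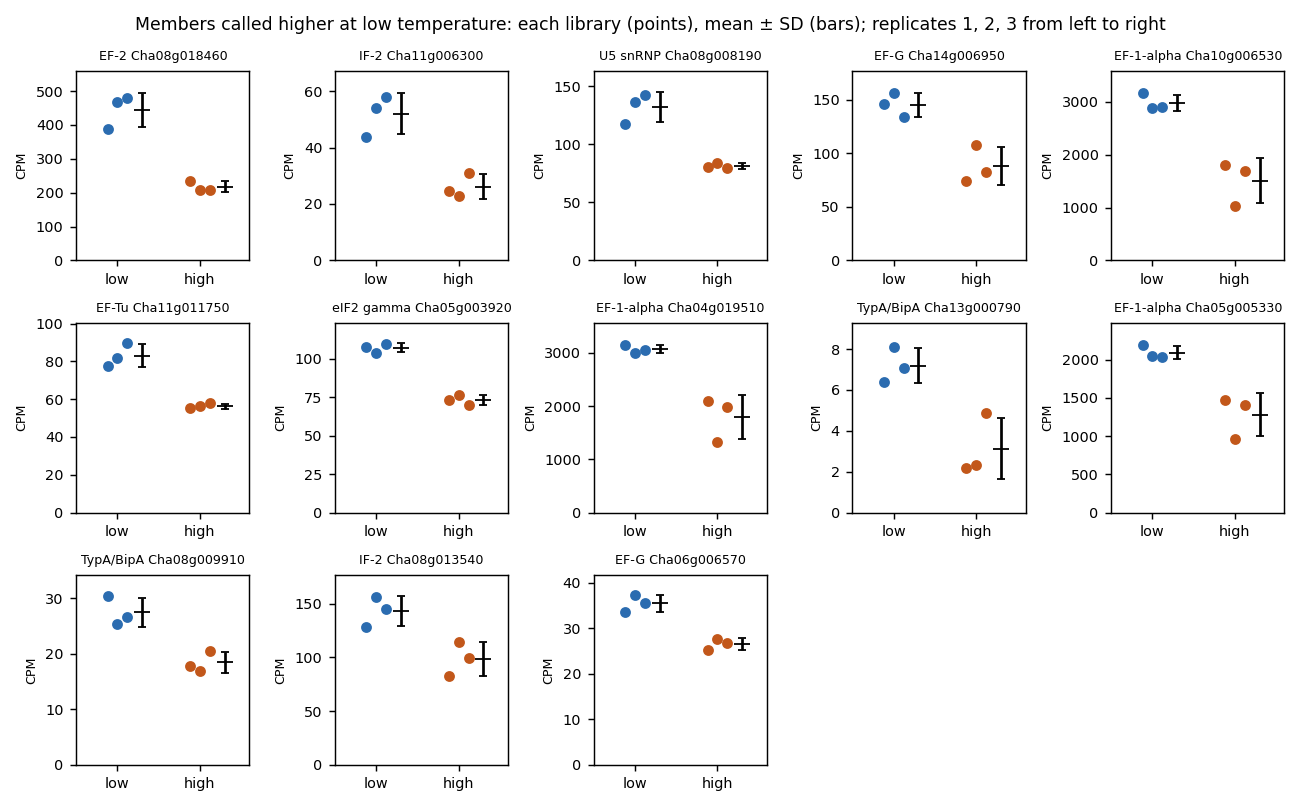
Level in CPM of each of the 13 members called higher, in the 3 low-temperature libraries (blue, left) and the 3 high-temperature libraries (orange, right), with the mean ± SD beside the points. In every panel the lowest low-temperature point is above the highest high-temperature point, and high-temperature replicate 2 is the lowest point in the 3 EF-1-alpha panels.

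The 6 other tested cytosolic-type members, which act in initiation, termination, ribosome rescue and ribosome maturation, gave 1 call. Cha05g003920 (assembly sequence 5, 27184303 to 27191584, plus strand), named eIF2 subunit 3, is the gamma subunit that binds GTP and brings the initiator tRNA to the small subunit. It had 108, 104 and 109.7 CPM at low temperature, against 72.9, 76.4 and 69.9 CPM at high temperature, with little spread in either group (log2 change 0.55 ± 0.12, adjusted p = 0.00462). A second eIF2 gamma model, ChaUn9330.2, averaged 39.6 ± 3.62 CPM at low temperature and 34.1 ± 4.87 CPM at high temperature (SD, n = 3 each) and was not called (adjusted p = 0.336). eIF5B (Cha09g006630), which joins the subunits, had 83.0, 60.1 and 61.6 CPM at low temperature, against 66.3, 96.4 and 73.2 CPM at high temperature, and the groups overlapped (log2 change -0.21 ± 0.16, adjusted p = 0.41).

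The termination factor eRF3 (Cha03g012390) averaged 121 ± 3.34 CPM at low temperature and 108 ± 19.0 CPM at high temperature (SD, n = 3 each; adjusted p = 0.443). High-temperature replicate 2, at 129.7 CPM, was the highest library of all 6 for this gene, and without it the change was called (log2 change 0.32, adjusted p = 0.0348). HBS1-like protein (Cha10g010030), known in yeast and mammals for rescuing stalled ribosomes, had 23.1 ± 1.39 CPM at low temperature and 26.0 ± 3.23 CPM at high temperature, with overlapping groups (adjusted p = 0.473). Elongation factor-like GTPase 1 (Cha11g013950), which in yeast and humans helps mature the large subunit, had 25.1, 24.9 and 29.8 CPM at low temperature, against 23.4, 22.4 and 19.5 CPM. Those groups did not overlap, but the change did not pass the test (log2 change 0.29 ± 0.15, adjusted p = 0.201).

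Among the chloroplastic members, 2 of 6 tested rose, an elongation factor G and an IF-2, and the elongation factor Tu did not pass the test. Summed over the 7 members the level was 698 ± 10.1 CPM at low temperature and 518 ± 70.1 CPM at high temperature (SD, n = 3 each). Of these sums, elongation factor Tu (Cha03g009310) held 385 ± 11.6 and 303 ± 94.3 CPM. EF-G (Cha14g006950, assembly sequence 14, 46647236 to 46651056, minus strand) is the translocase of the plastid ribosome, and its mutation in Arabidopsis can give pale cotyledons. It had 146, 157 and 134 CPM at low temperature, against 74.1, 108 and 82.6 CPM at high temperature (log2 change 0.72 ± 0.15, adjusted p = 0.00274). Here high-temperature replicate 2 was the highest of its group and still below the low-temperature libraries. Without it the log2 change was 0.90. The lesser EF-G model, Cha12g002820, with the GTP-binding domain and domain 2 alone, averaged 1.76 ± 0.269 CPM at low temperature and 1.18 ± 0.469 CPM at high temperature and was not called (adjusted p = 0.43). Its neighbour of the same name, Cha12g002810, 28 bases away, was not called either (log2 change 0.16 ± 0.52, adjusted p = 0.872).

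IF-2 of the chloroplast, which places the initiator tRNA on the plastid ribosome, was represented by 2 models, 1 of them called. The main one, Cha08g013540 (assembly sequence 8, 125666497 to 125675630, plus strand), had 129, 156 and 145 CPM at low temperature, against 82.2, 114 and 99.3 CPM at high temperature (log2 change 0.54 ± 0.14, adjusted p = 0.0141). It was not called without low-temperature replicate 2 or 3 or high-temperature replicate 1 or 3 (adjusted p = 0.0884, 0.0636, 0.0725 and 0.0528), nor in limma on unfiltered log2(FPKM + 1) (adjusted p = 0.0501). The minor one, Cha05g011760, had 4.40, 4.09 and 5.06 CPM at low temperature, against 6.39, 8.34 and 6.25 CPM. It was the single member whose low-temperature libraries all lay below the high-temperature ones, and it did not pass the test (log2 change -0.63 ± 0.24, adjusted p = 0.0796).

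EF-Tu of the chloroplast (Cha03g009310, assembly sequence 3, 110522931 to 110526579, plus strand), which brings aminoacyl-tRNA to the plastid ribosome, was the most abundant organelle factor, with 249 ± 7.87 FPKM at low temperature and 195 ± 61.9 FPKM at high temperature (SD, n = 3 each). It had 390.3, 372 and 393 CPM at low temperature, against 323, 200.0 and 385 CPM at high temperature, where replicate 2 was far below the other 2 and replicate 3 reached the low-temperature range (log2 change 0.35 ± 0.19, adjusted p = 0.222). Without high-temperature replicate 2 the log2 change was 0.12 (adjusted p = 0.463). A gene model of a similar name outside the family label, Cha03g021080 (elongation factor Tu, chloroplastic), fell, with 11.5, 9.27 and 13.2 CPM at low temperature, against 14.8, 19.3 and 21.2 CPM at high temperature (log2 change -0.70 ± 0.19, adjusted p = 0.0156). That model holds the EF-Tu C-terminal domain and an SGF29 tudor-like domain, but no GTP-binding domain. Cha03g021100, with the same name and domains, was not called (log2 change 0.01 ± 0.51, adjusted p = 0.989). The chloroplastic GUF1 homolog (ChaUn11369.1), the plant counterpart of bacterial LepA, averaged 17.4 ± 2.00 CPM at low temperature and 19.3 ± 5.20 CPM at high temperature and was not called (adjusted p = 0.638).

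**Figure D3:**
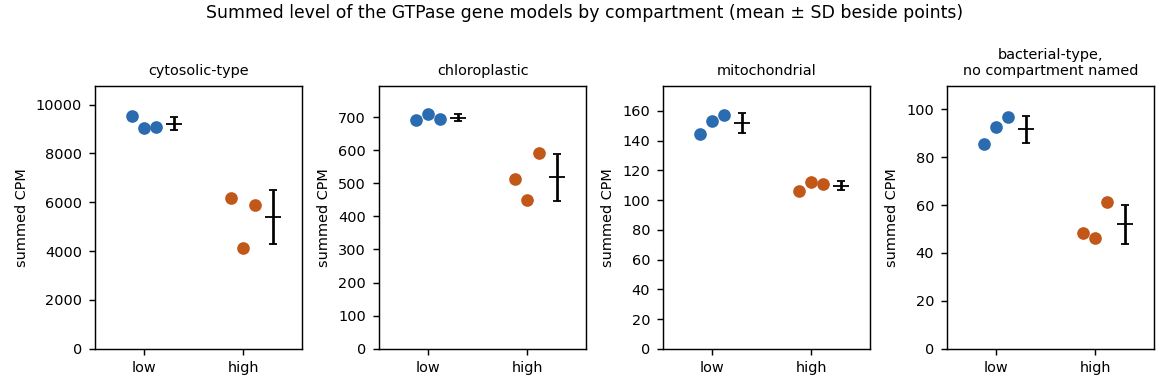
Summed CPM of the members of each compartment in the 3 low-temperature (blue, left) and 3 high-temperature libraries (orange, right), with the mean ± SD. All 4 sums were higher in every low-temperature library, the cytosolic-type sum averaging 9211 CPM at low and 5395 CPM at high temperature. EF-1-alpha models made up 8317 and 4764 CPM of that sum.

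All 4 mitochondrial members had every low-temperature library above every high-temperature one, and 2 passed the test. The same held for the libraries of all 4 unassigned bacterial-type members. Over all tested gene models 18.1% lay apart in this direction and 9.27% were called higher. EF-Tu (Cha11g011750, assembly sequence 11, 87720727 to 87725585, minus strand) had 77.8, 81.9 and 89.5 CPM at low temperature, against 55.1, 56.1 and 57.8 CPM at high temperature (log2 change 0.56 ± 0.12, adjusted p = 0.00458). Its spread among high-temperature libraries was small, and replicate 2 did not stand apart there. The other mitochondrial EF-Tu, ChaUn8545.2, of the same coding length of 1353 bases, had 16.2, 15.1 and 15.6 CPM, against 12.6, 11.7 and 11.4 CPM, a log2 change of 0.39 ± 0.17 that did not pass the test (adjusted p = 0.117).

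The mitochondrial translocase EF-G (Cha06g006570, assembly sequence 6, 71580197 to 71599797, plus strand) had 33.6, 37.3 and 35.6 CPM at low temperature, against 25.2, 27.7 and 26.8 CPM at high temperature, the smallest of the called rises (log2 change 0.42 ± 0.14, adjusted p = 0.0413). That call is marginal. It was lost when scaled by library totals (adjusted p = 0.114), and without low-temperature replicate 2 or 3 (adjusted p = 0.152 and 0.132) or high-temperature replicate 1 or 3 (adjusted p = 0.109 and 0.104), and also with the replicate block and in all 3 limma fits on log2 FPKM. GUF1 of the mitochondrion (Cha01g023150) averaged 17.6 ± 1.30 CPM at low temperature and 14.9 ± 1.54 CPM at high temperature (SD, n = 3 each; adjusted p = 0.344).

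Bacterial-type factors with no compartment in their names rose in 3 of 4 cases. An IF-2 (Cha11g006300, assembly sequence 11, 58852296 to 58867342, minus strand) had 43.9, 54.1 and 58.0 CPM at low temperature, against 24.5, 22.7 and 31.0 CPM at high temperature, close to a doubling at a log2 change of 0.99 ± 0.16 (adjusted p = 0.000319). It was called under all 15 alternatives. In rank by p it came second among the members, after EF-2.

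TypA/BipA is a ribosome-associated GTPase that bacteria need for growth in the cold, and in Arabidopsis its chloroplast form is needed for normal greening at low temperature. Cha08g009910 (assembly sequence 8, 103987790 to 104025000, plus strand) had 14.9, 12.5 and 13.1 FPKM at low temperature, against 8.73, 8.20 and 10.1 FPKM at high temperature (log2 change 0.58 ± 0.15, adjusted p = 0.014). Leaving out low-temperature replicate 1 or 3 ended the call, with adjusted p = 0.0554 and 0.0502, and limma on unfiltered log2(FPKM + 1) gave 0.0571.

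The other TypA/BipA member, Cha13g000790 (assembly sequence 13, 11344797 to 11362048, plus strand), showed the largest called log2 change, 1.20 ± 0.31 (adjusted p = 0.0106), at a low level. It had 6.40, 8.12 and 7.06 CPM at low temperature, against 2.18, 2.34 and 4.86 CPM at high temperature, where replicate 3 was above the other 2. The call was lost without low-temperature replicate 2 (adjusted p = 0.065). This model has 588 bases and the GTP-binding domain only. The next model on the strand, Cha13g000800, lies 425 bases on, bears the same protein name and holds EF-Tu domain 2 and the EF-G C-terminus, under another family label. It rose too, with 13.0, 18.3 and 13.5 CPM, against 5.57, 11.2 and 5.98 CPM at high temperature (log2 change 0.97 ± 0.25, adjusted p = 0.0122). Here too, whether the pair form a single gene was not tested. ChaUn15424.2, a 513-base model of the same name outside the family label, was not called (log2 change 0.73 ± 0.33, adjusted p = 0.135).

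GTPase Der (Cha02g011600), a 582-base model, had 4.87, 4.99 and 4.80 CPM at low temperature, against 3.94, 3.96 and 4.73 CPM at high temperature, with no overlap but a small change (log2 change 0.21 ± 0.26, adjusted p = 0.62). Cha02g011610, also named Der and 27 bases away, was not called (log2 change 0.62 ± 0.25, adjusted p = 0.0922), while Cha13g010490, another Der model outside the family label, rose (log2 change 0.78 ± 0.20, adjusted p = 0.0105). Beyond translation, the U5 spliceosomal protein CLO (Cha08g008190, assembly sequence 8, 90256452 to 90267820, plus strand), an EF-2 relative that acts in pre-mRNA splicing, rose in all low-temperature libraries, with 118, 136 and 143 CPM, against 80.5, 84.3 and 79.7 CPM at high temperature (log2 change 0.70 ± 0.13, adjusted p = 0.00121). PMT21 (Cha14g004100) and scy1 (Cha08g003870) had overlapping groups and were not called (adjusted p = 0.209 and 0.858). The scy1 model had 1.40, 4.09 and 3.63 CPM, against 2.45, 2.64 and 3.29 CPM at high temperature. PMT21 had 44.4, 73.6 and 58.7 CPM, against 45.8, 53.0 and 44.2 CPM, and without low-temperature replicate 1, its lowest cool library, it was called (adjusted p = 0.0474).

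Levels per length spanned several orders. The 3 main EF-1-alpha models averaged 2257 ± 56.1, 2192 ± 112 and 1538 ± 63.2 FPKM at low temperature (SD, n = 3), with 1318 ± 313, 1107 ± 313 and 937 ± 209 FPKM at high temperature. EF-2 Cha08g018460 came next in the order, with 357 ± 41.0 FPKM at low and 174 ± 13.7 FPKM at high temperature, then chloroplastic EF-Tu. At high temperature those last 2 did not differ beyond their spread, while at low temperature their ranges lay apart. Chloroplastic EF-G had 66.4 ± 4.98 FPKM at low temperature and 39.9 ± 7.67 FPKM at high temperature, close to mitochondrial EF-Tu with 60.7 ± 4.49 FPKM at low and 40.9 ± 1.07 FPKM at high temperature, and these neighbours overlapped in both groups.

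**Figure D4:**
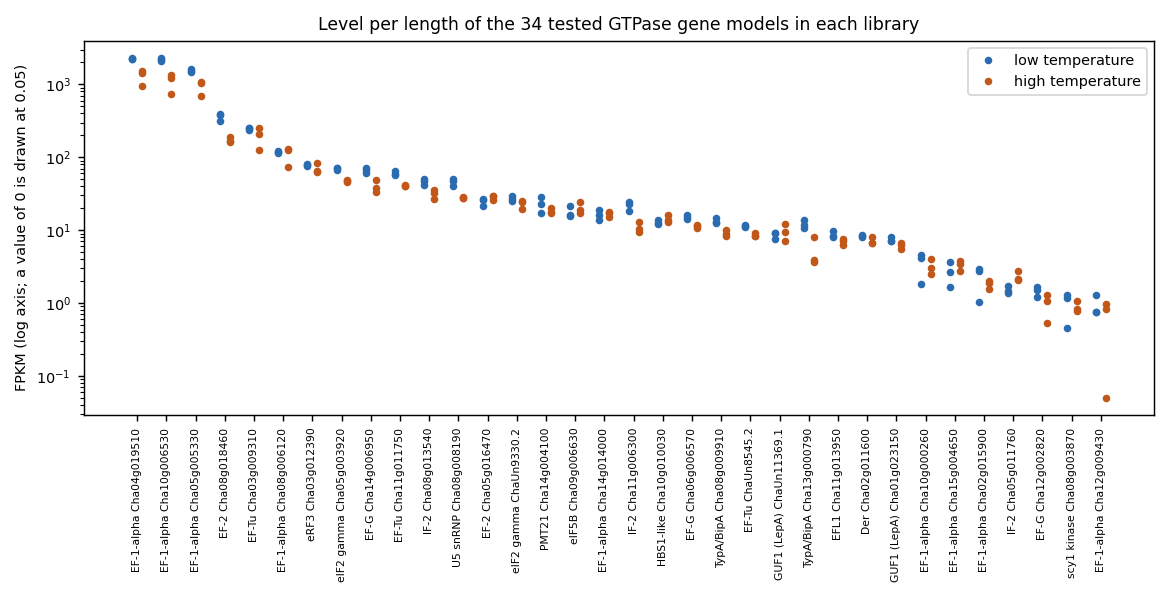
FPKM (log axis) of the 34 tested members in each low-temperature (blue, left of each pair) and high-temperature library (orange, right), in order of the mean over all libraries. The 3 main EF-1-alpha models lie above all other members in all 6 libraries.

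In each compartment the tRNA-delivering GTPase was more abundant per length than the translocase. The sums behind the ratios cover members only, so EF-2 model Cha08g018470 and EF-1-alpha model ChaUn10361.3, among other namesakes, are left out. The ratio of summed FPKM of EF-1-alpha over EF-2 was 19.3, 14.9 and 14.6 at low temperature, against 18.8, 13.2 and 19.7 at high temperature. Chloroplastic EF-Tu over chloroplastic EF-G was 3.71, 3.33 and 4.09 at low temperature, where 2.61 in high-temperature replicate 2 was below, and 6.01 in replicate 1 above, all 3 of these, with replicate 3 higher still. Mitochondrial EF-Tu over mitochondrial EF-G was 4.76, 4.43 and 5.01 at low temperature, against 4.57, 4.17 and 4.39. The ranges of the groups overlapped in all 3 ratios. EF-1-alpha over chloroplastic EF-Tu was 25.3, 24.7 and 23.4 at low temperature, against 19.6, 19.6 and 15.4 at high temperature, and these ranges did not overlap.

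Other parts of the translation machinery, taken from lists of protein names with the members left out, are given beside the 9.27% of all gene models called higher and the 9.65% called lower. Of 72 tested initiation factors 12 rose and 2 fell (median log2 change 0.07). The alpha subunit of eIF2 (ChaUn10293.2), partner of the gamma subunit above, had 31.9, 30.6 and 36.2 CPM at low temperature, against 17.5, 15.9 and 15.3 CPM at high temperature (log2 change 1.02 ± 0.15, adjusted p = 0.000192). eIF6-2 (Cha03g014490), which keeps the large subunit from joining, had 135, 156 and 161 CPM, against 88.8, 90.1 and 88.9 CPM (log2 change 0.75 ± 0.13, adjusted p = 0.00065). In both genes the libraries of the groups lay apart.

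None of 13 tested elongation factors outside the GTPase family was called by edgeR, where 1 was higher at an unadjusted p under 0.05, while DESeq2 called 1 and edgeR without high-temperature replicate 2 called 2. The list holds the exchange factors that reload EF-1-alpha and EF-Tu with GTP. EF-1-gamma (Cha06g003490), of the exchange complex for EF-1-alpha, had 443, 467 and 442 CPM at low temperature, against 328, 383 and 321 CPM at high temperature, with no overlap (log2 change 0.39 ± 0.14, adjusted p = 0.0686, or 0.00767 with DESeq2). Without high-temperature replicate 2 it was called (log2 change 0.47, adjusted p = 0.00156). Elongation factor P (Cha04g022580) averaged 22.5 ± 4.73 CPM at low temperature and 28.1 ± 2.78 CPM at high temperature (SD, n = 3 each; adjusted p = 0.192).

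Release and recycling factors had 1 of 10 tested gene models that rose, the stop-codon reader eRF1-3 (Cha04g006450), with 71.9, 92.8 and 101 CPM at low temperature, against 61.0, 69.6 and 56.5 CPM at high temperature (log2 change 0.51 ± 0.14, adjusted p = 0.0205). It lost the call without either of low-temperature replicates 2 and 3 or high-temperature replicates 1 and 3, where the adjusted p was at most 0.139, and also with library totals and in all 3 limma fits on log2 FPKM. A peptide chain release factor 1 (Cha06g015800) averaged 4.13 ± 0.490 CPM at low temperature and 6.33 ± 1.97 CPM at high temperature and was not called (adjusted p = 0.13). Among 98 tested aminoacyl-tRNA ligases, which charge tRNAs, 14 rose and 4 fell (median 0.06). By name 43 of them belong to an organelle, of which 7 rose and none fell by edgeR, and 36 are cytoplasmic, of which 7 rose and 1 fell. The 2 with the smallest p were the organelle ligases for lysine (ChaUn9426.3) and proline (Cha08g001950). The lysine ligase had 57.3, 69.0 and 74.5 CPM at low temperature, against 34.9, 43.9 and 38.2 CPM at high temperature (log2 change 0.78 ± 0.14, adjusted p = 0.00112). The proline ligase had 32.5, 40.3 and 41.0 CPM, against 18.2, 22.8 and 22.7 CPM (log2 change 0.84 ± 0.15, adjusted p = 0.00118).

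**Figure D5:**
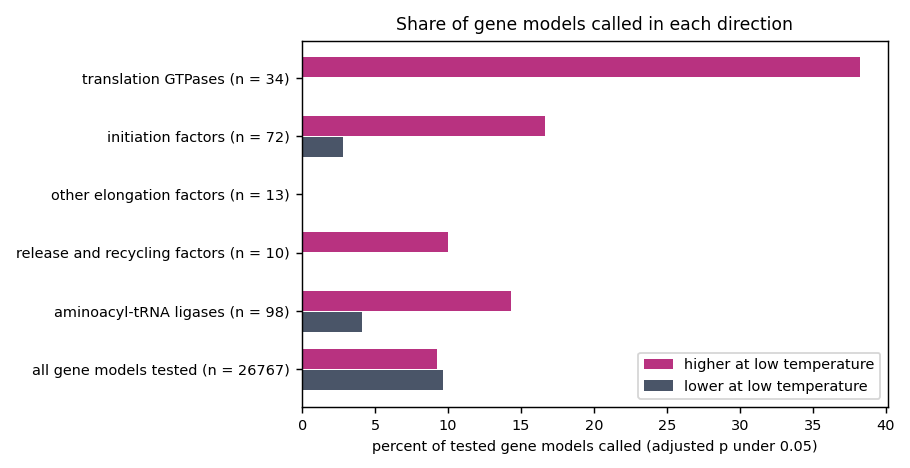
Percent of tested gene models called higher or lower at low temperature (adjusted p under 0.05) among the translation GTPases, the 4 other translation lists and all 26767 tested gene models. Higher calls make up 38.2% of the GTPases and 9.27% of all gene models, and the differences between lists were not tested.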

How the data were processed

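Raw counts and FPKM of every gene model were deposited by the authors in 2 tables. The submitters' processing notes name fastp, HISAT2 2.0.5, featureCounts 1.5.0-p3 and DESeq2 1.20.0, without roles. For genome build, strand and multiply matching reads the treatment is not given in the sources used here, and antisense reads cannot be told apart. The deposited FPKM equal count over coding length and 1 divisor per library, 0.977 to 1.13 times the library total. Counts were tested in edgeR 4.0.16 under R 4.3.3 (robust quasi-likelihood F test, TMM, filterByExpr at its minimum count of 10, no covariates), called at a Benjamini-Hochberg adjusted p under 0.05 over all gene models tested. CPM are TMM-scaled, and each SE is the log2 change over the root of F. The same steps were also run on simulated counts in which no library stood apart, and no result here rests on that run. Alternatives used DESeq2 1.42.0 and limma 3.58.1 on log2(FPKM + 1 or 0.1), with a mean FPKM of at least 0.5 or no such filter. Chi-square between replicates averaged 5.41 to 26.5 over gene models, above the sampling noise of about 1, and none were merged. Members and lists were chosen with earlier results of these data known. Named members are those called, those whose groups do not overlap, and the most abundant of each role and compartment, plus the 2 smallest p of each other list and, chosen after their values were seen, further members of a role and neighbours or namesakes outside the label. Neighbours were sought within 20000 bases. The background at 10 CPM was also added after seeing the data. Floors cover counting error only.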

Additional observations from a re-analysis of the deposited data

How the results depend on the processing

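Tried in all were 15 alternatives: a pair of other scalings and of other count filters, a block on replicate number, 6 fits lacking 1 library, DESeq2, and limma on log2 FPKM. For the 33 named gene models they gave 495 values, of which 456 kept direction and side of the threshold, 32 lost the call, 4 gained it and 3 changed sign. The sign changes were in gene models that were never called: scy1 (Cha08g003870, log2 change -0.14 and -0.02 without low-temperature replicates 2 and 3, up to 0.47 without replicate 1) and chloroplastic GUF1 (ChaUn11369.1, 0.060 without high-temperature replicate 1, down to -0.33 without replicate 3). No member was called lower under any alternative. Members called higher numbered 7 with unfiltered log2(FPKM + 1), with 2980 calls over all gene models, 2 cytosolic-type, 1 chloroplastic and 1 mitochondrial member and 7 initiation factors. Mitochondrial calls were 1 also with library totals, the block and both filtered FPKM fits. Release and recycling factors had 0 calls with library totals and both filtered FPKM fits and 2 without a count filter, and other elongation factors 1 with DESeq2. Leaving out 1 library gave 8 to 14 members higher and 0 lower, 3 to 6 cytosolic-type, 1 to 2 chloroplastic, 1 to 2 mitochondrial, 2 to 3 unassigned bacterial-type and 1 to 2 other members called, 4 to 13 initiation factors, 0 to 2 other elongation factors, 0 to 2 release and recycling factors, 7 to 19 tRNA ligases and 2606 to 5621 calls over all gene models. The labels do not say whether the replicate numbers pair the samples. Deviations from the group means correlated at -0.011, 0.040 and -0.0094 for numbers 1, 2 and 3. No sign of pairing was seen, though 3 libraries per group are too few to exclude it. The replicate block gave 12 members higher and 4805 calls in all. Of the 11 untested members, 6 had no read at this depth, where 3 counts would be 0.180 to 0.204 CPM. Why their counts are low was not tested.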
